A study of Mus musculus with 6 samples.

Results

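The genes described here mark the fibroblasts of the adventitia, the connective tissue sleeve around airways and large vessels, and make the small proteoglycans that coat collagen fibrils. There are 10 of them, found by an exact match of the gene symbol among the 55359 rows of the deposited table, with 1 row for each symbol. They are the small leucine-rich proteoglycan genes Dcn, Lum and Ogn, the matrix genes Dpt and Mfap5, the secreted protein genes Serpinf1, Clec3b and Pi16, and the surface protein genes Dpep1 and Ly6a. The rule uses names and no measured value, although the set was proposed with earlier results of these data known, and all 10 passed the filter on low counts that left 17728 genes to test.

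Poly(A) RNA was read from the whole lung of C57 mice taken at E18.5, shortly before birth. Of the 6 libraries, 3 carry the genotype label Prmt5 knockdown and 3 the label WT. The series text calls the mutation a knockout of Prmt5 in the mesenchyme with Dermo1, another name of Twist2, as the driver, so epithelium, endothelium and blood cells are not its target while their RNA is in the sample. Litters are not named in the labels. The p-values thus reflect only how far these 6 samples spread, some of which may be technical.

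Decorin, lumican and osteoglycin belong to a family of proteins with a curved core of leucine-rich repeats. They bind to collagen fibrils and help set their thickness and spacing, and decorin also binds growth factors such as TGF-beta. In the lung, fibroblasts of the adventitia around bronchi and vessels are the cells best known for this set, which single-cell atlases separate from the alveolar fibroblasts of the gas-exchange wall. Several of the genes are also active in connective tissue of other organs, such as the sheaths of muscle.

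The targeted gene was measured first. Prmt5, a methyltransferase for protein arginines, stood at 39.6, 47.8 and 46.9 CPM in knockdown-labelled replicates 1 to 3, against 46.7, 47.3 and 48.3 CPM in WT replicates 1 to 3 (CPM, counts scaled to the library total over the genes tested times its TMM factor). Its log2 fold change was -0.08 (adjusted p = 0.682 by the quasi-likelihood test of edgeR with Benjamini-Hochberg adjustment, as for every edgeR value below), so every direction below rests on the label. Libraries held 14383415 to 19262837 counts. Both sexes were present in each group, by Xist and Ddx3y, with 2 males among the knockdown-labelled and 1 among the WT embryos. Lung markers were high in all 6 libraries, with Sftpc, the surfactant protein C gene, at 8576 to 10497 CPM in knockdown-labelled and 7911 to 9810 CPM in WT lungs. RNA of heart and skeletal muscle was also present in every library, in amounts given further on.

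Per unit of transcript length, the 10 genes covered a wide range in the fetal lung. In WT lungs the deposited FPKM (counts scaled to exonic length and library total) was highest for Dpt (92.1 ± 6.12, SD, n = 3), followed by Clec3b (86.2 ± 11.95) and Ogn (84.3 ± 6.74), and the ranges of these neighbours overlapped. Dpep1 came next at 50.3 ± 0.676 FPKM, apart from the genes on either side of it. Ly6a (30.1 ± 4.94 FPKM) overlapped with Dcn (18.2 ± 8.70 FPKM), Dcn with Lum (13.8 ± 7.07 FPKM), and Lum with Serpinf1 (13.2 ± 1.44 FPKM). Mfap5 (5.86 ± 2.62 FPKM) and Pi16 (1.597 ± 0.342 FPKM) were lowest and stood apart from each other. In the knockdown-labelled lungs the order was the same at both ends. In the middle Dcn (37.9 ± 8.94 FPKM) and Lum (23.8 ± 10.93 FPKM) had higher means than Ly6a (23.0 ± 3.49 FPKM), and there every pair of neighbours from Dpep1 down to Mfap5 overlapped. Pi16, a gene commonly used to name adventitial fibroblasts, was thus the scarcest of the set, with 141 to 324 counts in knockdown-labelled and 126 to 184 counts in WT libraries.

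**Figure D1:**
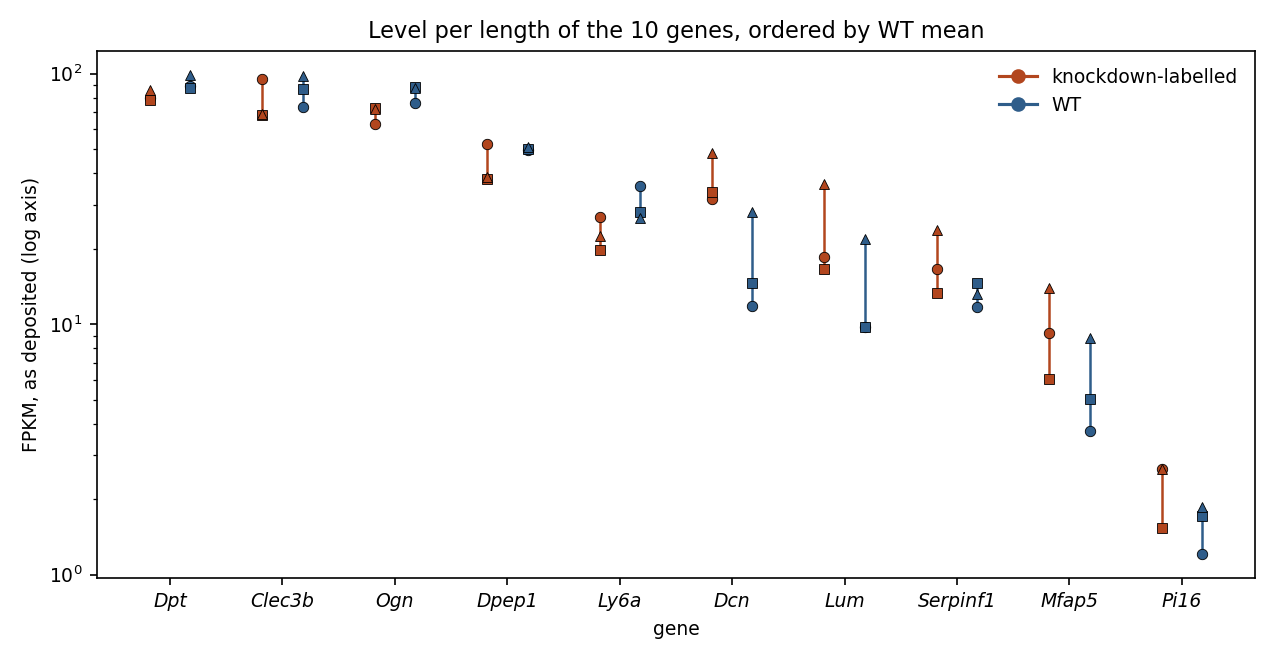
Deposited FPKM (log axis) of the 10 genes in order of their WT mean. Points are libraries (circle, square and triangle for replicates 1, 2 and 3) and lines span the range of 3 knockdown-labelled (left, brown) and 3 WT (right, blue) libraries, from Dpt at 79 to 99 FPKM down to Pi16 at 1.2 to 2.6 FPKM over both groups.

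Between the groups, the set split. Dcn, Lum, Mfap5, Pi16 and Serpinf1 had higher means in the knockdown-labelled lungs, by 1.35-fold to 2.07-fold, while Ly6a, Ogn, Dpep1, Dpt and Clec3b had lower ones, with log2 fold changes of -0.40 to -0.17. None of these differences passed an adjusted p of 0.05 over all genes tested in edgeR (0 of 10, where 0.0338% of all genes passed), in DESeq2 (0 of 10, where 5.35% passed) or in limma on log2(FPKM + 1) (0 of 10, where 0.0338% passed). At an unadjusted p under 0.05 edgeR had 4 of the 10, beside 17.0% of all genes. Of these 4, Dcn was higher (beside 8.48% of all genes) and Ogn, Dpt and Ly6a were lower (beside 8.52%). At that level DESeq2 had 6 of the 10 beside 15.7% of all genes, and limma had 3 beside 16.9%. All 3 libraries of one group lay beyond all 3 of the other for Dcn (higher) and for Ogn and Dpt (lower), beside 10.8% of all genes higher, 12.4% lower and 23.2% in either direction without overlap. The median log2 fold change over the 10 genes was 0.13 (5 above 0 and 5 below), beside 0.01 over all genes tested, of which 52.9% were above 0. In whole-organ RNA, fewer cells of a type and less RNA per cell cannot be told apart.

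**Figure D2:**
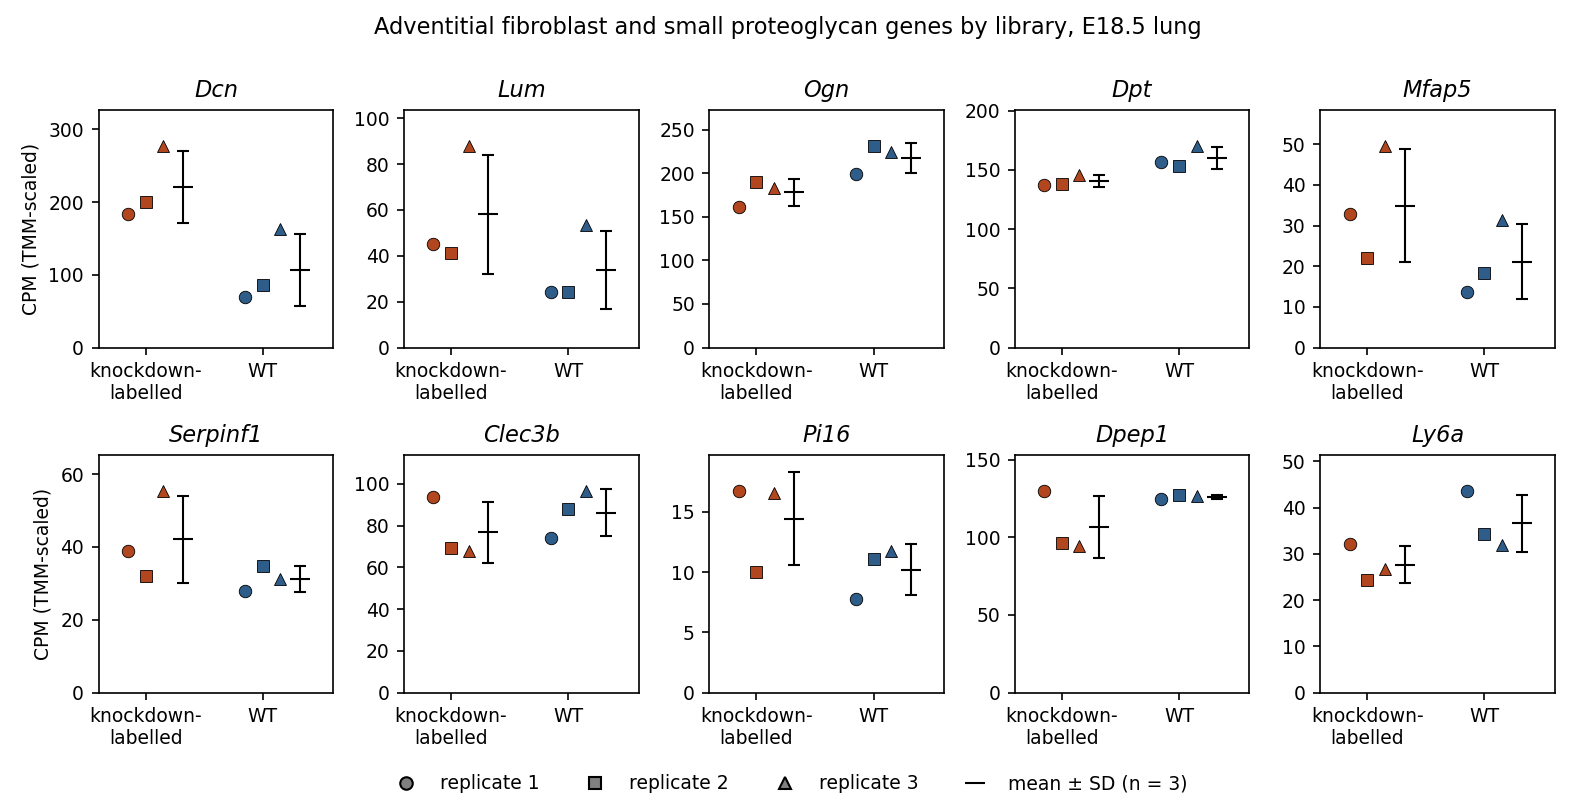
CPM of each gene by library, with knockdown-labelled libraries on the left and WT on the right of each panel. Bars are the mean ± SD of 3 libraries. Dcn lies higher without overlap (184 to 277 against 69.7 to 163 CPM), Ogn and Dpt lie lower without overlap, and replicate 3 of both groups (triangles) is the highest library of its group for Dcn, Lum and Mfap5.

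Decorin had the largest difference of the set. Dcn (ENSMUSG00000019929, chromosome 10, 97315471 to 97354005, plus strand) stood at 184, 201 and 277 CPM in knockdown-labelled replicates 1 to 3, against 69.7, 86.4 and 163 CPM in WT replicates 1 to 3. Every knockdown-labelled library was above every WT one, but WT replicate 3 was well above its own group and close to knockdown-labelled replicate 1. Its log2 fold change was 1.05, standard error 0.32 (95% interval 0.29 to 1.82; unadjusted p = 0.0141, edgeR adjusted p = 0.201). With 1 library left out at a time it stayed between 0.82 and 1.504.

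Lumican, the keratan sulfate proteoglycan best known from the cornea, shared that pattern with more spread. Lum (ENSMUSG00000036446, chromosome 10, 97400990 to 97408565, plus strand) had 45.0, 41.3 and 87.9 CPM in knockdown-labelled lungs, against 24.0, 24.2 and 53.6 CPM in WT lungs. Replicate 3 was the high library in both groups, and WT replicate 3 lay above knockdown-labelled replicates 1 and 2, so the groups overlapped. The log2 fold change of 0.78 had an interval from -0.19 to 1.74 (edgeR adjusted p = 0.388). Without knockdown-labelled replicate 3 it was 0.35, and without WT replicate 3 it was 1.27.

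Osteoglycin, also called mimecan, had a difference of the opposite sign. Ogn (ENSMUSG00000021390, chromosome 13, 49761522 to 49777977, plus strand) had 161, 190 and 184 CPM in knockdown-labelled lungs, against 199, 231 and 224 CPM in WT lungs. All knockdown-labelled libraries were below all WT ones, and replicate 3 was not set apart in either group. The log2 fold change was -0.29 (95% interval -0.51 to -0.07; edgeR adjusted p = 0.213). The ratio of Dcn to Ogn in FPKM, which does not depend on the scaling of a library, was 0.503, 0.464 and 0.664 in knockdown-labelled lungs and 0.154, 0.164 and 0.320 in WT lungs. Its mean was 0.544 ± 0.106 against 0.213 ± 0.0931 (SD, n = 3 each; exact permutation test, two-sided p = 0.1, the smallest that 3 against 3 libraries allow). As Dcn was higher and Ogn lower without overlap, their ratio could not overlap either. That p was therefore fixed in advance and adds nothing to the values of each gene. The ratio of Dcn to Lum overlapped between the groups, at 1.32 to 2.04 in knockdown-labelled and 1.22 to 1.495 in WT lungs (exact permutation test, two-sided p = 0.2).

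Dcn and Lum are genomic neighbours, and both belong to runs of small proteoglycan genes. The coordinates are those of the table, whose genome build no source names. Dcn, Lum, Kera and Epyc follow each other on the plus strand of chromosome 10, with 47.0, 34.2 and 30.4 kb between them. Ecm2, Aspn, Omd and Ogn do so on chromosome 13, with 11.7, 14.9 and 15.2 kb between them. Keratocan (Kera) had 4, 2 and 98 counts in knockdown-labelled and 15, 7 and 34 counts in WT replicates 1 to 3. Replicate 3 was again the high library of each group, at counts too low for a direction (95% interval of the log2 fold change -2.18 to 3.42). Epiphycan (Epyc) had 4 to 28 counts in knockdown-labelled and 5 to 15 in WT libraries. On chromosome 13 asporin (Aspn) stood at 104 ± 10.9 CPM in knockdown-labelled and 100.4 ± 22.98 CPM in WT lungs, and Ecm2 at 22.4 ± 0.477 and 21.3 ± 1.21 CPM (SD, n = 3 each). Osteomodulin (Omd) was at 0.566 to 0.741 CPM in knockdown-labelled and 0.433 to 1.15 CPM in WT lungs. None of these 5 neighbours passed the edgeR test (adjusted p from 0.706 for Ecm2 to 0.923 for Aspn).

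Among the other matrix genes, Dpt kept close to Ogn. Dermatopontin binds decorin and collagen and takes part in fibril assembly. Dpt (ENSMUSG00000026574, chromosome 1, 164624213 to 164651835, plus strand) had 137, 138 and 146 CPM in knockdown-labelled lungs, against 156, 153 and 170 CPM in WT lungs. The groups did not overlap and their spread was the narrowest of the set in knockdown-labelled lungs (3.42% coefficient of variation). Its log2 fold change was -0.19 (95% interval -0.35 to -0.02; edgeR adjusted p = 0.249). Mfap5, which encodes a small glycoprotein of fibrillin microfibrils, instead kept close to Lum. Mfap5 (ENSMUSG00000030116, chromosome 6, 122482804 to 122506249, plus strand) stood at 33.0, 22.1 and 49.6 CPM in knockdown-labelled lungs, against 13.6, 18.4 and 31.5 CPM in WT lungs. Replicate 3 was the highest library of each group, and WT replicate 3 was above knockdown-labelled replicate 2. The log2 fold change of 0.73 had an interval from -0.17 to 1.62 (edgeR adjusted p = 0.383). It was 0.38 without knockdown-labelled replicate 3 and 1.13 without WT replicate 3.

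Promoter sequences are shown for Dpt and Ogn, the members with lower libraries that did not overlap with WT. The RefSeq promoter table (build GRCm38.p6) matched 5 of the 10 genes, Dpt, Dpep1, Serpinf1, Ogn and Pi16. Each line holds the 250 bases upstream of the annotated start, 5′ to 3′ on the strand of the gene, and capitals mark each CANNTG (read on both strands, as the motif is its own reverse complement). CANNTG is the E-box, the motif bound by basic helix-loop-helix factors, the family of Twist2. The Dpt window is chr1:164796413-164796662 and the Ogn window is chr13:49607765-49608014, both on the plus strand.
Dpt: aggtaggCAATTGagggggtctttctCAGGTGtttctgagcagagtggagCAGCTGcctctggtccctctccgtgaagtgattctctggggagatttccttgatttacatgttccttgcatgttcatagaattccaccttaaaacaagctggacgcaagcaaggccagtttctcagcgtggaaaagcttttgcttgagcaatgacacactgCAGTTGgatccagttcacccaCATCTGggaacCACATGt
Ogn: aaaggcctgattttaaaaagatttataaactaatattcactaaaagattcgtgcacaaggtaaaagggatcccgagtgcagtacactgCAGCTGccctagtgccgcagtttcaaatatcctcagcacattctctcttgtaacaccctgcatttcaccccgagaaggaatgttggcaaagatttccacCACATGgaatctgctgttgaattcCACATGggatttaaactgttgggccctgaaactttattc
The Dpt window held 6 E-box motifs and the Ogn window 3. The Serpinf1 window held 4, and those of Dpep1 and Pi16 held 0. Over all 32851 windows of this length in the table, 66.2% held at least 1, 12.2% at least 3 and 0.274% at least 6. A match of letters is a description of the window and not a binding site.

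The secreted proteins of the set split as well. Serpinf1 encodes pigment epithelium-derived factor, a serpin without inhibitory activity that restrains vessel growth. It stood (ENSMUSG00000000753, chromosome 11, 75300595 to 75313527, minus strand) at 39.0, 32.1 and 55.3 CPM in knockdown-labelled lungs, against 27.9, 34.9 and 31.1 CPM in WT lungs. The groups overlapped, with knockdown-labelled replicate 3 above all others (log2 fold change 0.43, 95% interval -0.04 to 0.91, edgeR adjusted p = 0.324). Without that library the log2 fold change was 0.19. Clec3b encodes tetranectin, which binds plasminogen. It had (ENSMUSG00000025784, chromosome 9, 122980011 to 122986497, plus strand) 93.5, 69.1 and 67.6 CPM in knockdown-labelled lungs, against 74.0, 87.9 and 96.5 CPM in WT lungs. Knockdown-labelled replicate 1 lay inside the WT range and the groups overlapped (log2 fold change -0.17, 95% interval -0.53 to 0.20, edgeR adjusted p = 0.638). It rested on single libraries, at -0.32 without knockdown-labelled replicate 1, -0.26 without WT replicate 1, -0.10 and -0.08 without knockdown-labelled replicates 2 and 3, and -0.07 without WT replicate 3.

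Pi16, whose product carries a domain of the cysteine-rich secretory protein family, was the scarce marker noted above. It had (ENSMUSG00000024011, chromosome 17, 29536654 to 29549567, plus strand) 16.7, 9.98 and 16.6 CPM in knockdown-labelled lungs, against 7.79, 11.1 and 11.8 CPM in WT lungs. Knockdown-labelled replicate 2 lay within the WT range and the other two above it (log2 fold change 0.50, 95% interval -0.09 to 1.09, edgeR adjusted p = 0.364). An antisense gene, Gm46603, overlaps Pi16 in the table and had 222 counts over the 6 libraries, against 1203 for Pi16. The strand setting of the counting is not named in any source used, so reads of the pair cannot be told apart.

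The surface proteins had lower means. Dpep1 encodes a membrane dipeptidase that cleaves leukotriene D4. It stood (ENSMUSG00000019278, chromosome 8, 123912981 to 123928551, plus strand) at 130, 96.0 and 94.5 CPM in knockdown-labelled lungs, against 125, 127 and 126 CPM in WT lungs. Its WT libraries were the most uniform of the set (0.871% coefficient of variation), and knockdown-labelled replicate 1 was above all of them while replicates 2 and 3 were below. Its log2 fold change was -0.24 (95% interval -0.54 to 0.06; edgeR adjusted p = 0.393), and with 1 library left out it ran from -0.39 without knockdown-labelled replicate 1 (edgeR adjusted p = 0.131) to -0.16 without knockdown-labelled replicate 3 (edgeR adjusted p = 0.627). Ly6a encodes Sca-1, a marker of mouse stem and progenitor cells that endothelial cells also carry. It had (ENSMUSG00000075602, chromosome 15, 74866726 to 74869880, minus strand) 32.05, 24.3 and 26.7 CPM in knockdown-labelled lungs, against 43.6, 34.4 and 31.9 CPM in WT lungs. The groups met between knockdown-labelled replicate 1 and WT replicate 3 (log2 fold change -0.40, 95% interval -0.76 to -0.05, edgeR adjusted p = 0.255). Without WT replicate 1, the highest library, it was -0.26 (edgeR adjusted p = 0.598). Its relatives Ly6c1, Ly6e and Ly6c2 had log2 fold changes of -0.06, -0.10 and 0.13. How reads shared within this family were counted is not known here.

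The 8 endothelial genes all had negative log2 fold changes (median -0.45). Of these 8, 0 passed an adjusted p of 0.05 and 7 had an unadjusted p under 0.05, beside 8.52% of all genes lower at that level. Their summed level was 1770, 2184 and 1722 CPM in knockdown-labelled replicates 1 to 3, against 2858, 2554 and 2523 CPM in WT replicates 1 to 3, with no gene at 0 in any library. Within the WT group the endothelial sum and Ly6a (43.6, 34.4 and 31.9 CPM) fell in the same order from replicate 1 to 3. Within the knockdown-labelled group the orders differed, since replicate 2 had the highest endothelial sum and the lowest Ly6a level. The part of endothelial RNA in the Ly6a difference was not tested.

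The profiles of the genes over the 6 libraries were then compared with each other. Likeness was measured as the root mean square difference of log2(CPM + 0.5), after subtracting each gene's mean, over the 6 libraries. The closest of the 45 pairs were Dpep1 with Clec3b (0.113) and Ogn with Dpt (0.114). Mfap5 with Lum (0.193), Serpinf1 with Pi16 (0.203) and Dcn with Lum (0.262) were the closest among the genes with higher means, and Dcn with Ly6a was the farthest pair (0.933). By this measure the direction of the difference did not sort all pairs. The measure depends on how far each gene varies, so a flat profile such as that of Dpt lies near profiles of moderate spread. Nearness to a flat profile is thus not a shared direction. Serpinf1 was nearer to Dpt (0.370) than to Mfap5 (0.382), Lum (0.457) or Dcn (0.525), and Pi16 nearer to Clec3b (0.390) and Dpt (0.427) than to Lum (0.444) or Dcn (0.4855). The 5 genes with higher means had coefficients of variation between embryos of 22.5% to 44.7% in knockdown-labelled and 11.2% (Serpinf1) to 50.1% (Lum) in WT lungs. Those with lower means had 3.42% to 18.95% in knockdown-labelled and 0.871% to 16.8% (Ly6a) in WT lungs, so the ranges met only in WT. Knockdown-labelled replicate 3 was the highest of the 6 libraries for 4 of the 10 genes (Dcn, Lum, Mfap5 and Serpinf1), and WT replicate 1 the lowest for 5 (the same 4 and Pi16).

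**Figure D3:**
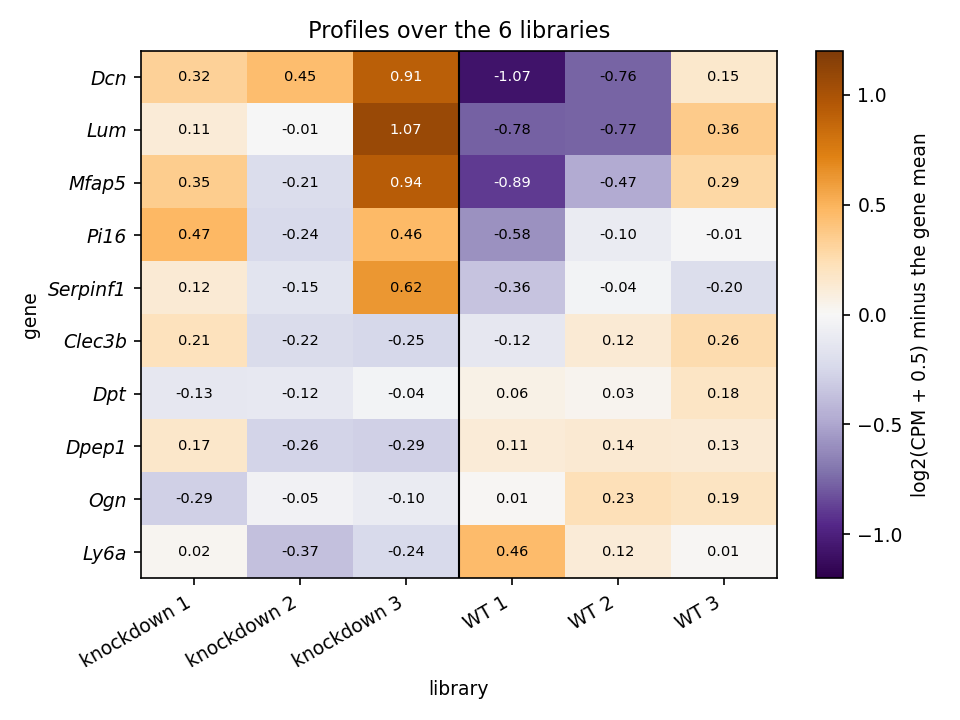
Profiles of the 10 genes over the 6 libraries, knockdown-labelled left of the line and WT right of it, as log2(CPM + 0.5) minus the mean of each gene. Dcn, Lum and Mfap5 range from about -1.07 to 1.07, with knockdown-labelled replicate 3 high and WT replicates 1 and 2 low, while Dpt stays within -0.13 to 0.18.

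Outside the set, the genes nearest to its mean profile were Col5a1 (0.0682), Mycl (0.0708), Gfra1 (0.0709), Fah (0.0739) and Fam20c (0.0756), by the same measure over 6 libraries and among genes with a mean of at least 10 CPM. Col5a1, which encodes a chain of the collagen that starts the growth of fibrils, stood at 448, 392 and 542 CPM in knockdown-labelled lungs and at 378, 405 and 461 CPM in WT lungs. Because the mean profile averages genes that differ in opposite directions, it is flatter than most of them.

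In the rest of the small proteoglycan family, 14 of 15 other members were tested. In edgeR 0 passed an adjusted p of 0.05 and 1 (Chad, higher) had an unadjusted p under 0.05, beside 8.48% of all genes higher. Their median log2 fold change was 0.10, with 11 above 0 and 3 below. Biglycan (Bgn), the closest relative of decorin, was more abundant than any of the 10 genes in CPM and per length, at 661 ± 51.0 CPM in knockdown-labelled and 724 ± 39.8 CPM in WT lungs (log2 fold change -0.13, 95% interval -0.34 to 0.08, edgeR adjusted p = 0.508). The unadjusted interval of Bgn lies below that of Dcn, the largest difference of the set, but the genes were not tested against each other. Chondroadherin (Chad), a cartilage matrix protein, stood at 49.4 ± 6.33 against 36.4 ± 6.85 CPM without overlap (log2 fold change 0.44, edgeR adjusted p = 0.240). Nyctalopin (Nyx), a proteoglycan of the retina, had 15 to 35 counts in knockdown-labelled and 14 to 19 in WT libraries.

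**Figure D4:**
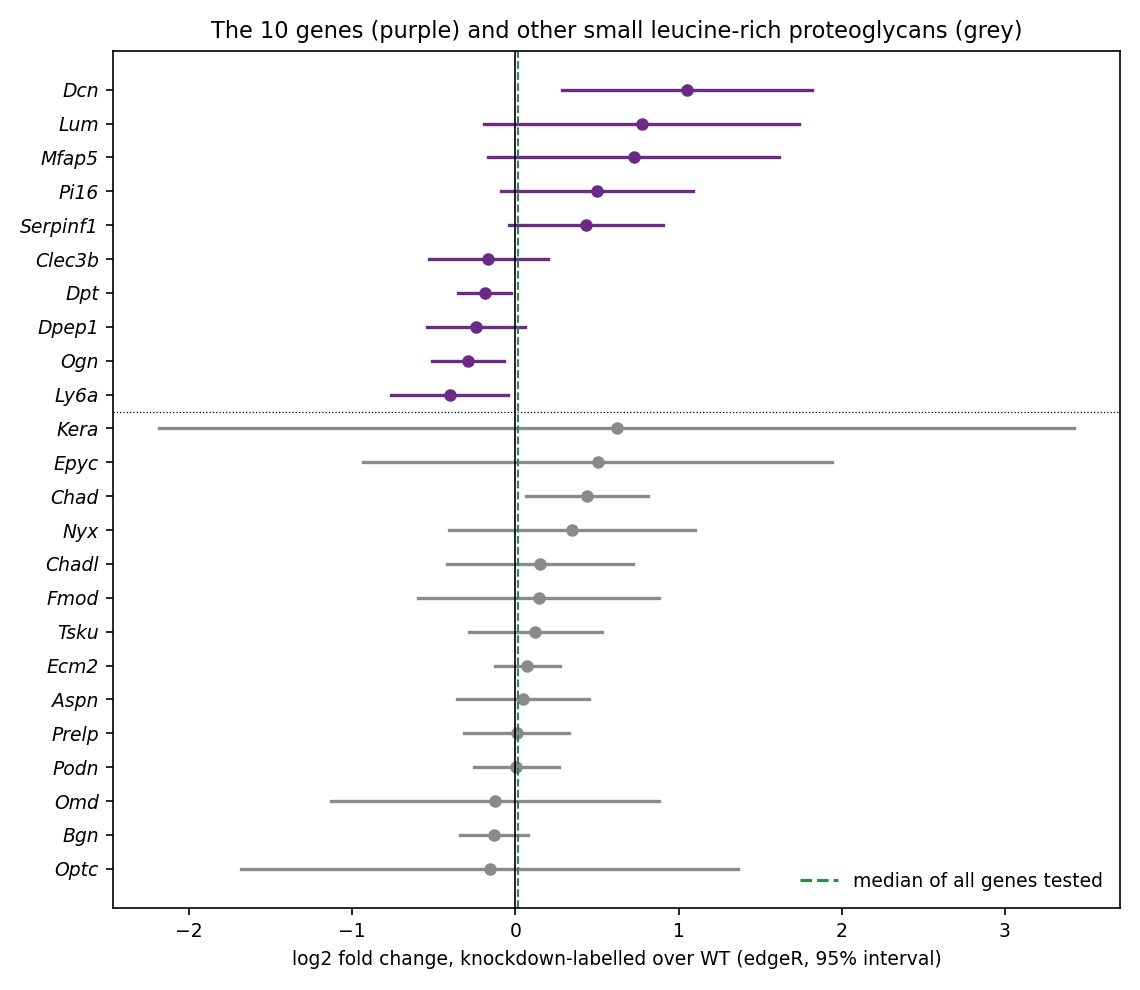
Log2 fold change of knockdown-labelled over WT lungs with 95% intervals from edgeR, for the 10 genes (purple) and 14 other small leucine-rich proteoglycan genes (grey), each in order of size. The dashed line is the median of all genes tested (0.01), and the intervals of Dcn, Dpt, Ogn, Ly6a and Chad leave out 0 before adjustment for multiple tests.

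Of 26 further adventitial fibroblast genes, 0 passed in edgeR over all genes tested. The median log2 fold change was 0.20, with 17 above 0 and 9 below. An unadjusted p under 0.05 was found for 5 higher and 4 lower genes, beside 8.48% and 8.52% of all genes. Gfpt2, an enzyme of hexosamine synthesis, had the smallest p, at 18.1 ± 2.68 CPM in knockdown-labelled and 8.71 ± 1.17 CPM in WT lungs (log2 fold change 1.05, edgeR adjusted p = 0.0941). Has1, a hyaluronan synthase, stood at 2.53 ± 0.550 against 1.37 ± 0.155 CPM (log2 fold change 0.88, edgeR adjusted p = 0.191). Cd34, a sialomucin of adventitial fibroblasts and of endothelium, stood at 255 ± 46.7 against 349 ± 23.0 CPM (log2 fold change -0.45, edgeR adjusted p = 0.194). Twist2, the gene named as the driver, had 17, 13 and 29 counts in knockdown-labelled and 42, 29 and 48 counts in WT libraries (log2 fold change -1.14, edgeR adjusted p = 0.163).

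The enzymes that build chondroitin and dermatan sulfate, the chains carried by decorin and biglycan, showed small differences. Of 21 genes 20 were tested and 0 passed in edgeR, with a median log2 fold change of -0.06. An unadjusted p under 0.05 was found for 2 higher and 2 lower genes, beside 8.48% and 8.52% of all genes. Dse, an epimerase that turns chondroitin into dermatan sulfate, stood at 37.9 ± 2.02 CPM in knockdown-labelled and 48.2 ± 3.62 CPM in WT lungs (log2 fold change -0.35, edgeR adjusted p = 0.146). Csgalnact1, which starts chondroitin chains, stood at 13.9 ± 0.735 against 18.7 ± 1.97 CPM (log2 fold change -0.42, edgeR adjusted p = 0.174). Chpf, a chondroitin polymerizing factor, was at 38.2 ± 7.37 against 28.4 ± 2.24 CPM and Xylt1, which attaches the first sugar of the chain, at 16.1 ± 1.03 against 13.4 ± 0.581 CPM (edgeR adjusted p = 0.223 and 0.282).

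A list of collagen and microfibril genes, with Bmp1 and Pcolce added, was likewise uncalled in edgeR (0 of 14, median log2 fold change -0.04). An unadjusted p under 0.05 was found for 1 higher and 2 lower genes, beside 8.48% and 8.52% of all genes. Col1a1, a fibrillar collagen chain, stood at 1662, 1345 and 1831 CPM in knockdown-labelled lungs, against 1097, 1322 and 1298 CPM in WT lungs (log2 fold change 0.38, edgeR adjusted p = 0.243). The fibrillar chains Col1a2 and Col3a1 had log2 fold changes of 0.15 and 0.04 (edgeR adjusted p = 0.623 and 0.931). Fbn1, the fibrillin to which the Mfap5 protein binds, stood at 449 ± 32.1 against 538.5 ± 17.8 CPM without overlap (log2 fold change -0.26, edgeR adjusted p = 0.201). Of the collagen VI chains, Col6a3 was at 820 ± 63.4 against 1019 ± 31.3 CPM (log2 fold change -0.31, edgeR adjusted p = 0.174) and Col6a2 at 1271 ± 84.0 against 1400 ± 79.2 CPM (log2 fold change -0.14, edgeR adjusted p = 0.481).

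Muscle RNA varied widely between the libraries. The 8 skeletal muscle genes summed to 954, 530 and 4342 CPM in knockdown-labelled replicates 1 to 3, against 325, 98.4 and 1850 CPM in WT replicates 1 to 3, with no gene at 0 in any library. Replicate 3 was the highest library of each group, as it was for Dcn, Lum and Mfap5. That also held for other lists, among them smooth muscle (1311 and 965 CPM) and 4 tendon genes (40.4 and 37.2 CPM). The lowest library of each group was replicate 2 for skeletal muscle and replicate 1 for Dcn. For Lum and Mfap5 it was replicate 2 among the knockdown-labelled and replicate 1 among the WT libraries. All 8 skeletal muscle genes had positive log2 fold changes (median 1.30) and 0 had an unadjusted p under 0.05. In knockdown-labelled replicate 2, Ckm had 407 of the 530 CPM of the list, and Acta1, the next gene, had 45.0. That library also had the highest heart muscle sum. Whether its Ckm RNA came from skeletal or heart muscle was not tested. The 12 heart muscle genes summed to 4317, 12531 and 3363 CPM in knockdown-labelled lungs, against 506, 628 and 2963 CPM in WT lungs, also with none at 0. Every knockdown-labelled library was above every WT one, and all 12 log2 fold changes were positive (median 2.26). Of these 12, 0 passed an adjusted p of 0.05 and 9 had an unadjusted p under 0.05, beside 8.48% of all genes higher at that level. The 8 alveolar fibroblast genes had negative log2 fold changes (median -0.47), summing to 1791 to 1966 CPM in knockdown-labelled and 2382 to 2659 CPM in WT lungs. Of these 8, 0 passed an adjusted p of 0.05 and 6 had an unadjusted p under 0.05, beside 8.52% of all genes lower. Smooth muscle genes summed to 707 to 1311 against 658 to 965 CPM, cartilage genes to 64.8 to 129.9 against 84.7 to 106.1 CPM, and mesothelial genes to 478 to 644 against 555 to 646 CPM.

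Fits that took these levels into account gave values nearer to 0 for Dcn, Lum and Mfap5. Ogn stayed near its main value with skeletal muscle as a covariate (-0.28, against -0.29 without) and was farther from 0 with heart muscle. The part of muscle RNA in these differences was not tested. The mean log2 level of the skeletal muscle list, Ckm included, was a covariate chosen after seeing the data. With it the log2 fold change was 0.91 for Dcn, 0.48 for Lum and 0.42 for Mfap5 (edgeR adjusted p = 0.263, 0.372 and 0.462). With heart muscle as the covariate it was 0.50 for Dcn, 0.41 for Lum, 0.48 for Mfap5 and -0.04 for Ly6a (edgeR adjusted p = 0.805, 0.890, 0.868 and 0.969). In the same fit the values of 5 other genes were farther from 0 than without it, at 0.67 for Serpinf1, 0.55 for Pi16, -0.43 for Ogn, -0.25 for Dpt and -0.28 for Clec3b, and Dpep1 was at -0.16. None of the 10 passed in it, and their median was 0.19. The heart muscle sum was higher in every knockdown-labelled than in every WT library, so the covariate and the label cannot be told apart in full. Leaving out replicate 3 of both groups, the libraries with the most skeletal muscle RNA of their group, was also tried after seeing the data. In that fit of 2 against 2 libraries 2 of the 10 genes passed, Dcn (log2 fold change 1.30, edgeR adjusted p = 0.0429) and Lum (0.84, edgeR adjusted p = 0.0495), where 0.725% of all genes did. Replicate 3 was also the highest library of each group for Dcn and Lum, so leaving it out removed much of their own spread. The choice was thus not independent of their values. The heart muscle sums that remained were 4317 and 12531 CPM in knockdown-labelled and 506 and 628 CPM in WT libraries. Over all 17 alternatives the adjusted p ran from 0.0429 to 0.805 for Dcn and from 0.0495 to 0.890 for Lum.

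**Figure D5:**
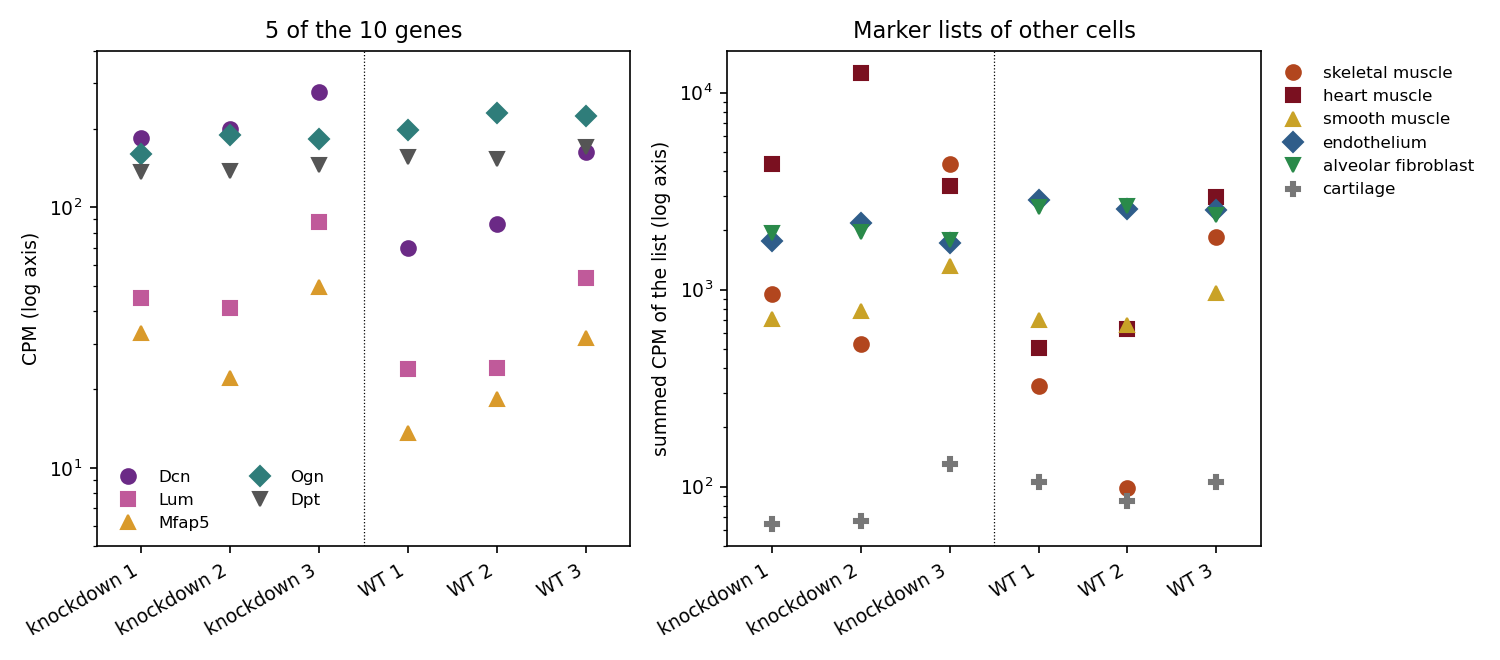
CPM of 5 of the 10 genes (left) and summed CPM of marker lists of other cells (right) in each library, on log axes, with knockdown-labelled libraries left of the dotted line and WT right of it. Dcn, Lum and Mfap5 are highest in replicate 3 of each group, as are the skeletal muscle sum (4342 and 1850 CPM) and the smooth muscle sum (1311 and 965 CPM). Ogn and Dpt vary little.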

How the data were processed

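Whole-lung poly(A) RNA of 6 embryos was read as paired ends, per the labels' protocols. Tools listed in the submitters' processing notes are HTSeq 0.6.1, HISAT2 2.0.1 and cutadapt 1.9.1. No genome build or strand setting is given in the sources used here. The authors deposited raw counts per gene and library, and their FPKM with an exonic length per gene. Recomputing FPKM from count, total and length differed from the deposited values by at most 0.005.

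The counts were tested with edgeR 4.0.16 in R 4.3.3 (filterByExpr, TMM, quasi-likelihood, group as the only term, two-sided), and p-values were Benjamini-Hochberg adjusted over all 17728 genes. Standard errors are the log2 fold change over the square root of F. Alternatives used DESeq2 1.42.0, limma 3.58.1 on log2 FPKM with a pseudocount of 1 or 0.1, other filters and scaling, covariates, and omitted libraries. Replicate libraries differed by more than counting noise. A floor of 3 counts was 0.156 to 0.209 CPM, here by the total over all genes and without the TMM factor.

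Genes named are the 10, their neighbours in proteoglycan clusters, up to 4 with the smallest p in each of 4 lists, and the 5 nearest in profile. A few further genes of the lists are named beside them. The members and lists were chosen with earlier results of these data known.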

Additional observations from a re-analysis of the deposited data

How the results depend on the processing

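Across 17 alternatives (15 planned, 2 chosen after seeing the data) 167 of 170 values for single genes kept their direction and stayed above the threshold. The exceptions were all in the fit without replicate 3 of both groups, where Dcn and Lum passed (2 of the 10 genes called, against 0 in each other fit) and Clec3b turned to 0.0075. The median log2 fold change of the 10 genes ran from 0.05 to 0.25.

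The number of genes called among all was 6 in the chosen fit. It was 81 with no filter, 854 in DESeq2, 15 in robust edgeR, 0 with embryo sex, 1 with heart muscle level and 2 with skeletal muscle level as a covariate, and 128 without replicate 3 of both groups. With 1 library left out it ran from 0 to 17, with 17 reached without WT replicate 3. The cause was not tested. No paired analysis was possible because the labels give no numbers shared between the groups. At 126 to 324 counts a library, counting error limits Pi16 most.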
